A study of Mus musculus with 24 samples.

Results

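Integrin chains were followed in regulatory T (Treg) cells of young and old mice: *Itgae*, *Itgb7*, *Itga4*, *Itgb1*, *Itgal*, *Itgb2*, *Itgav*, *Itgb8*, *Itga6* and *Itgb3*. They were chosen by name as the chains of the heterodimers that T cells are known to use, with earlier results of these data known. They make up 10 of the 17464 genes listed in the data. All 10 passed the filter on low values, together with 16630 genes in all that were tested. RNA was sequenced from 3 splenic Treg subsets of wild-type C57BL/6JRccHsd mice, resting Treg (rTreg) cells sorted as CD62L+ CD44-, activated Treg (aTreg) cells sorted as CD62L- CD44+, and KLRG1+ Treg (kTreg) cells. Each subset came from 4 young mice of 2 months and 4 old mice of 26 months, which gave 24 libraries in 6 groups of 4, each of 15045747 to 29521942 reads on listed genes. All groups were wild type, the labels name no treatment, and the study used mice of both sexes without giving the sex of each library's mouse. Libraries of 1 age with the same replicate number were read as 1 mouse, and counts of mice rest on that reading. The series compares the subsets with each other and each subset between the ages.

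Integrins are heterodimers of an α and a β chain that hold cells to other cells and to matrix and signal in both directions across the membrane. Chains are shared: β7 pairs with αE and with α4, β1 pairs with α4, α6, αv and several others, and β2 pairs with αL. In T cells αE β7 (CD103) binds E-cadherin on epithelium, α4 β7 guides cells to the gut through MAdCAM-1, α4 β1 binds VCAM-1 and fibronectin, and αL β2 (LFA-1) binds ICAM-1 at the immune synapse and on endothelium. The αv β8 pair is known for releasing active TGF-β from its latent complex on Treg cells, and α6 β1 is a laminin receptor.

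The sorting marker of kTreg cells matched the name of the subset. *Klrg1* was at 26704 to 41561 normalized read counts in young kTreg and at 16559 to 32088 in old kTreg, against at most 357 in any rTreg or aTreg library. A normalized read count is the number of reads on a gene divided by 1 size factor for the library, and all values below are in this unit unless said otherwise. T cell markers summed to between 57594 and 89127 and Treg markers (*Foxp3*, *Il2ra*, *Ikzf2*, *Ctla4*, *Il2rb*) to between 25515 and 107474 in the 24 libraries.

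Several libraries stood apart. Young kTreg replicate 4 had 4913 genes at 0, and the other libraries had at most 2756. Old aTreg replicate 2 had the lowest Treg marker sum of all libraries, 25515, with *Foxp3* at 5079. As a group, the old rTreg libraries were high in myeloid markers: their macrophage and monocyte marker sums (5 markers) were 10036 to 26172 against 568 to 8063 in young rTreg, and their basophil and mast cell marker sums (3 markers) were 1842 to 5589 against 52.1 to 124. Young kTreg replicate 2 also had a high macrophage and monocyte marker sum, 19742, and young rTreg replicate 2 had the highest B cell marker sum, 15061. In bulk RNA, fewer cells of a type and less RNA per cell cannot be told apart. Where leaving out 1 of these libraries ended a call of a chain or moved its fold by much, the value without it is given.

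The genes differ widely in length, so levels between genes are compared per kilobase of exon. Averaged over the 24 libraries, the normalized read count per kilobase was highest for *Itgb7*, at 12825. It was 5597 for *Itgb2*, 1845 for *Itgal*, 1378 for *Itgb1* and 1241 for *Itgae*. The others lay lower, *Itga6* at 185, *Itga4* at 155, *Itgb3* at 116, *Itgav* at 78.1 and *Itgb8* at 34.4. The β7, β2, β1, αL and αE chains thus made up an abundant set and the αv, β8, β3, α4 and α6 chains a sparse one. Within a gene, the ratio of the highest to the lowest library was 22.9 for *Itgae*, 17.0 for *Itgb3* and 9.97 for *Itgb8*. It was 1.58 for *Itgb2*, the chain that varied least.

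**Figure D1:**
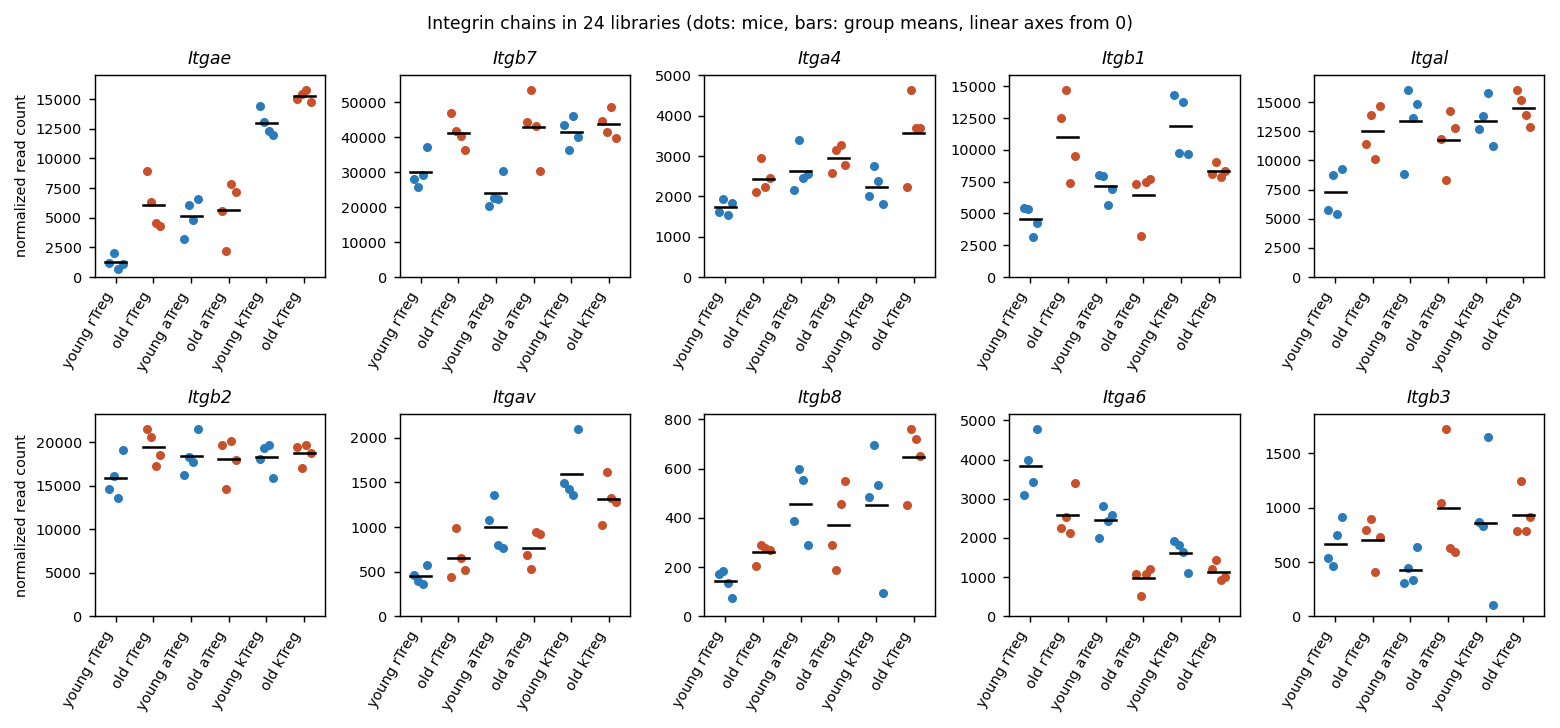
Normalized read counts (y axes, linear, from 0) of the 10 integrin chains in the 24 libraries by group (x axes). Dots are mice, blue for young and red for old, and black bars are means of 4 mice. *Itgae* climbs from young rTreg (mean 1242) to kTreg (12965 in young and 15271 in old mice), and *Itgb2* stays between group means of 15894 and 19485.

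*Itgae* (ENSMUSG00000005947, GRCm39 chromosome 11, 72981409 to 73039917, forward strand) encodes αE, the chain recognized as CD103. In young mice it was at 1149, 2011, 689 and 1119 in the 4 rTreg libraries, at 3188, 6045, 4794 and 6618 in aTreg and at 14450, 13091, 12337 and 11983 in kTreg cells. The 3 young groups did not overlap, and every young mouse went up from rTreg to aTreg and from aTreg to kTreg cells. In old mice it was at 8923, 6371, 4544 and 4322 in rTreg, at 5586, 2207, 7821 and 7170 in aTreg and at 15030, 15469, 15808 and 14778 in kTreg cells. Old kTreg libraries all lay above old rTreg and old aTreg libraries, which overlapped. Old aTreg replicate 2, the library with the low Treg marker sum, held the lowest old value. *Haspin*, which lies in an intron of *Itgae*, shares no exon base with it.

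*Itgae* was called in all 3 subset comparisons. A gene was called where limma gave a Benjamini-Hochberg adjusted p below 0.05 over all genes tested and the fold was above 1.5, and the subset comparisons gave the ages equal weight. In kTreg against aTreg cells it was 2.78-fold higher (log2 fold change 1.48 ± 0.24 SE, adjusted p = 2.3e-04), higher in kTreg cells of 8 of 8 mice. In kTreg against rTreg cells it was 5.43-fold higher (2.44 ± 0.24, adjusted p = 9.9e-08), again in 8 of 8 mice. Without old aTreg replicate 2 the first of these log2 values was 1.27 (adjusted p = 1.9e-04). In aTreg against rTreg cells it was 1.95-fold higher (0.97 ± 0.24, adjusted p = 0.0090), in 6 of 8 mice. That last value joined unlike ages: the fold was 4.30 in young mice (log2 2.10), while in old mice the difference was -0.17 with 2 of 4 mice higher in aTreg cells.

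*Itgb7* (ENSMUSG00000001281, chromosome 15, 102124429 to 102140379, reverse strand) encodes the β chain of both αE β7 and α4 β7. Its values were 27938, 25858, 29099 and 37236 in young rTreg, 20345, 22632, 22429 and 30428 in young aTreg and 43436, 36255, 46158 and 40141 in young kTreg cells. Young kTreg libraries all lay above young aTreg libraries. In old mice the values were 46800, 41774, 40461 and 36209 in rTreg, 44229, 53616, 43124 and 30467 in aTreg and 44623, 41411, 48714 and 39820 in kTreg cells, and the 3 old groups overlapped. Over both ages *Itgb7* was 1.34-fold higher in kTreg than in aTreg cells (log2 0.43 ± 0.11, adjusted p = 0.0096, 7 of 8 mice), past the p threshold and under the fold threshold. Within ages the fold was 1.75 in young and 1.04 in old mice. The difference between these folds missed the threshold (log2 -0.75 ± 0.21, adjusted p = 0.24). Without old aTreg replicate 4 it passed (-0.91, adjusted p = 0.041).

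*Itga4* (ENSMUSG00000027009, chromosome 2, 79085660 to 79163467, forward strand) encodes α4, the partner of β7 and β1. It ranged from 1531 to 1940 in young rTreg cells (mean 1732 ± 190 SD, n = 4) and from 2107 to 2963 in old rTreg cells, from 2156 to 3387 in young and 2582 to 3286 in old aTreg cells, and from 1822 to 2763 in young and 2245 to 4650 in old kTreg cells. Its log2 fold change was 0.44 ± 0.13 both in kTreg (adjusted p = 0.017, 7 of 8 mice) and in aTreg (adjusted p = 0.034, 8 of 8 mice) against rTreg cells, in both cases under the fold threshold. Its 3481 exon bases in common with *Cerkl*, on the opposite strand and at group means of 103 to 190, leave some reads uncertain, since the strand setting of the counting is not given in the sources used here.

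*Itgb1* (ENSMUSG00000025809, chromosome 8, 129411876 to 129460618, forward strand) encodes β1, the chain with the most α partners. In young mice it rose stepwise, at 5454, 5346, 3114 and 4243 in rTreg, 8050, 7947, 5666 and 6888 in aTreg and 14329, 9766, 13794 and 9641 in kTreg cells, with no overlap between the groups. In old mice the order differed, with 12474, 14738, 7390 and 9535 in rTreg, 7348, 3195, 7485 and 7692 in aTreg and 8113, 9083, 7850 and 8353 in kTreg cells. The highest single value of all libraries was in an old rTreg library and the lowest old value was in old aTreg replicate 2. Over both ages, *Itgb1* was 1.51-fold higher in kTreg than in aTreg cells (log2 0.59 ± 0.18, adjusted p = 0.031, 8 of 8 mice), which lies just above the fold threshold. Without old aTreg replicate 2 the log2 fold change was 0.44 (adjusted p = 0.061), and edgeR (0.55) and DESeq2 (0.56) left it under the fold threshold. Against rTreg cells the values were 0.52 ± 0.18 in kTreg cells (adjusted p = 0.037, 5 of 8 mice, under the fold threshold) and -0.07 ± 0.18 in aTreg cells (adjusted p = 0.88).

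*Itgal* (ENSMUSG00000030830, chromosome 7, 126895432 to 126934320, forward strand) and *Itgb2* (ENSMUSG00000000290, chromosome 10, 77366086 to 77401542, forward strand) encode the chains of LFA-1. *Itgal* was at 5760, 8746, 5389 and 9249 in young rTreg, 8834, 16028, 13680 and 14835 in young aTreg and 12718, 13832, 15746 and 11229 in young kTreg cells. In young mice the rTreg libraries were thus the low ones, overlapping with 1 aTreg library. In old mice it was at 11375, 13884, 10091 and 14689 in rTreg, 11849, 8286, 14227 and 12825 in aTreg and 16081, 15221, 13900 and 12840 in kTreg cells, and all groups overlapped. It was 1.48-fold higher in kTreg than in rTreg cells (log2 0.57 ± 0.14, adjusted p = 0.0055, 7 of 8 mice), just under the fold threshold. In 6 of 33 alternative fits, each without 1 library, limma called it, for example without young kTreg replicate 4 (0.61, adjusted p = 0.0031). *Itgb2* lay between 13646 and 21541 in all libraries and was called in none of the 9 comparisons, with log2 fold changes of 0.02 to 0.08 between subsets and standard errors of 0.08. Neither edgeR nor DESeq2 called it, and its unadjusted p was below 0.05 in 1 comparison, old against young rTreg cells (log2 0.30 ± 0.12, adjusted p = 0.13).

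The αv chains make up the sparse end. *Itgav* (ENSMUSG00000027087, chromosome 2, 83554403 to 83637260, forward strand) was at 463, 400, 359 and 576 in young rTreg, 1077, 1355, 800 and 764 in young aTreg and 1492, 1432, 1362 and 2100 in young kTreg cells, 3 groups without overlap. In old mice it was at 446, 993, 654 and 524 in rTreg, 686, 526, 940 and 924 in aTreg and 1022, 1613, 1327 and 1280 in kTreg cells, where the kTreg libraries were the highest and rTreg and aTreg libraries overlapped. It was called in all 3 subset comparisons: 1.67-fold higher in kTreg than in aTreg (log2 0.74 ± 0.18, adjusted p = 0.0073, 8 of 8 mice), 2.71-fold higher in kTreg than in rTreg (1.44 ± 0.18, adjusted p = 2.7e-06, 8 of 8 mice) and 1.62-fold higher in aTreg than in rTreg cells (0.70 ± 0.18, adjusted p = 0.011, 7 of 8 mice). Within ages the fold in aTreg against rTreg cells was 2.19 in young and 1.20 in old mice. The difference between these folds missed the threshold (log2 -0.87 ± 0.35, adjusted p = 0.22). *Itgav* shares 634 exon bases with *Gm13684* on the opposite strand, at group means of 5.44 to 79.6.

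*Itgb8* (ENSMUSG00000025321, chromosome 12, 119121748 to 119202584, reverse strand), the partner of αv, was at 173, 183, 137 and 76.3 in young rTreg, 387, 597, 553 and 289 in young aTreg and 486, 696, 535 and 96.1 in young kTreg cells. The kTreg value of 96.1 came from replicate 4, the library with many genes at 0. In old mice it was at 203, 289, 277 and 269 in rTreg, 288, 189, 455 and 550 in aTreg and 454, 761, 720 and 649 in kTreg cells. All old kTreg libraries lay above all old rTreg libraries. *Itgb8* was 2.57-fold higher in kTreg than in rTreg cells (log2 1.36 ± 0.33, adjusted p = 0.0038, 8 of 8 mice) and 2.07-fold higher in aTreg than in rTreg cells (1.05 ± 0.33, adjusted p = 0.040, 7 of 8 mice). Without young kTreg replicate 4 the first value was 1.68 (adjusted p = 8.5e-06). The second was no longer called in 12 of 33 alternative fits, each without 1 library, with adjusted p up to 0.097. Within ages it was 3.23-fold in young and 1.33-fold in old mice, and the difference between these folds missed the threshold (log2 -1.28 ± 0.65, adjusted p = 0.34). Its difference between kTreg and aTreg cells, 0.31 ± 0.33, missed the threshold (adjusted p = 0.60), and also without that library (0.63, adjusted p = 0.067).

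*Itgb3* (ENSMUSG00000020689, chromosome 11, 104498826 to 104561302, forward strand), another β partner of αv, was called in none of the 9 comparisons. It was at 539, 461, 745 and 916 in young rTreg, 307, 445, 336 and 636 in young aTreg and 872, 830, 1652 and 102 in young kTreg cells. In old mice it was at 791, 894, 409 and 729 in rTreg, 1048, 1726, 633 and 596 in aTreg and 789, 1243, 789 and 912 in kTreg cells. The lowest and second highest of these 24 values were both in young kTreg cells, and the highest was in old aTreg replicate 2. Its standard errors, 0.39 between subsets, were the widest of the 10 chains, and its unadjusted p was below 0.05 in 0 comparisons. edgeR and DESeq2 did not call it either. Without young kTreg replicate 4, limma called it higher in old than in young aTreg cells (log2 1.13, adjusted p = 0.047).

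*Itga6* (ENSMUSG00000027111, chromosome 2, 71575960 to 71689757, forward strand), the laminin-binding α6 chain, went the other way. It was at 3098, 3996, 3434 and 4783 in young rTreg, 2011, 2820, 2425 and 2586 in young aTreg and 1931, 1812, 1651 and 1096 in young kTreg cells, and these groups did not overlap. In old mice it was at 2249, 2538, 2133 and 3390 in rTreg, 1074, 517, 1081 and 1200 in aTreg and 1217, 1449, 918 and 995 in kTreg cells, with rTreg libraries above all others. *Itga6* was 2.31-fold lower in kTreg (log2 -1.21 ± 0.17, adjusted p = 1.3e-05) and 2.06-fold lower in aTreg (-1.04 ± 0.17, adjusted p = 2.1e-04) than in rTreg cells, lower in 8 of 8 mice each time. It was the 1 chain of the 10 called lower between subsets. Between kTreg and aTreg cells the difference was -0.17 ± 0.17 (adjusted p = 0.58).

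**Figure D2:**
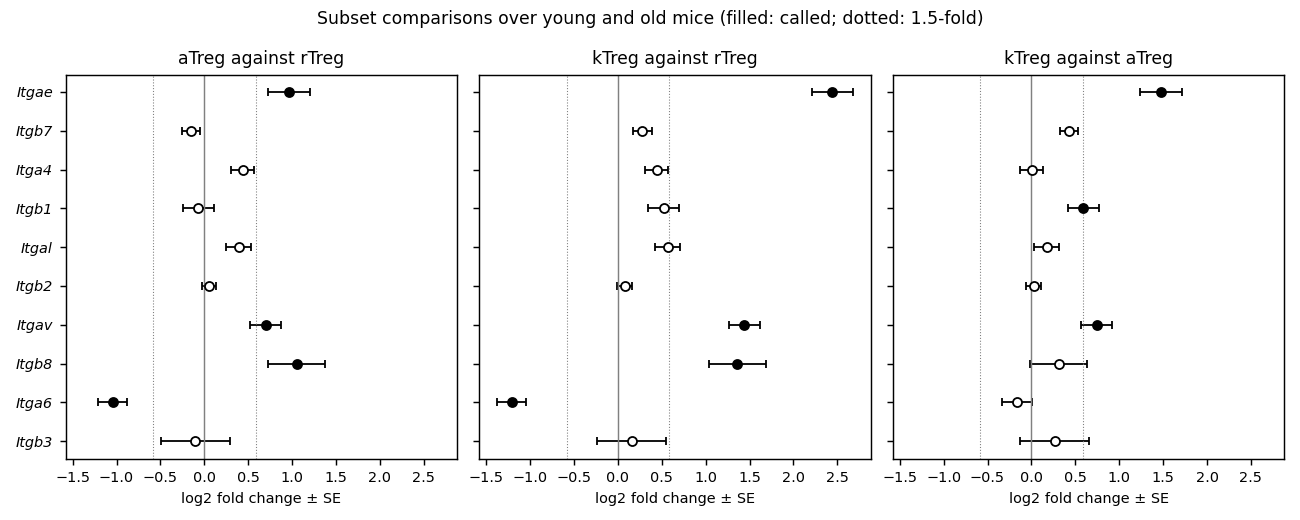
Log2 fold changes between subsets over 8 mice (x axes), with standard errors, for the 10 chains (y axis). Filled points are called and dotted lines mark a 1.5-fold change: *Itgae* and *Itgav* are filled on the right in all 3 panels, and *Itga6* is filled on the left in both panels against rTreg cells.

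The counts of called chains stand beside those of all genes tested. In kTreg against aTreg cells, 3 of 10 chains were called higher (*Itgae*, *Itgav*, *Itgb1*) and 0 lower, where 7.39% of all genes tested were called, 4.13% higher and 3.26% lower. In kTreg against rTreg cells, 3 were called higher (*Itgae*, *Itgav*, *Itgb8*) and 1 lower (*Itga6*), where 15.5% of all genes were called, 9.37% higher and 6.09% lower. In aTreg against rTreg cells 3 were called higher (*Itgae*, *Itgav*, *Itgb8*) and 1 lower (*Itga6*), where 8.01% of all genes were called, 5.23% higher and 2.78% lower. These 3 comparisons share libraries, so they are not separate evidence. The median log2 fold change of the 10 chains was 0.29 in kTreg against aTreg (all genes -0.08), 0.48 in kTreg against rTreg (all genes -0.01) and 0.22 in aTreg against rTreg cells (all genes 0.06).

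Old and young mice were compared within each subset to see which chains changed with age. In rTreg cells, *Itgae* was 5.0-fold higher in old mice (log2 2.32 ± 0.33, adjusted p = 1.4e-04), *Itgb1* was 2.41-fold higher (1.27 ± 0.25, adjusted p = 0.0030) and *Itgal* 1.75-fold higher (0.81 ± 0.20, adjusted p = 0.017). For each of these 3 chains, every old rTreg library lay above every young one. Of the 10 chains 3 were called, all higher, where 5.83% of all genes tested were called, 4.12% higher and 1.71% lower. The median over the 10 chains was 0.49 and that of all genes -0.08. *Itgae* and *Itgb1* remained called without any 1 library, and *Itgal* was lost without young rTreg replicate 1 (0.71, adjusted p = 0.066), young rTreg replicate 3 (0.67, adjusted p = 0.085) or old rTreg replicate 4 (0.72, adjusted p = 0.051).

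Macrophage and basophil marker RNA moved with this comparison, as given above. *Itga2b*, an α chain of platelets and their precursors, moved too, at a mean of 687 ± 282 (SD, n = 4) in old rTreg cells and 26.1 ± 5.90 in young ones, while the platelet and megakaryocyte marker sum (4 of 6 markers listed) was at most 114 in old and 59.3 in young rTreg cells. *Itgam*, the αM chain of myeloid cells, was at 211 ± 68.2 and 35.8 ± 38.4. The part of other cells' RNA in the higher *Itgae*, *Itgb1* and *Itgal* of old rTreg cells was not tested. Without old rTreg replicate 3, which had the highest macrophage and basophil marker sums, the log2 differences were 2.44 for *Itgae*, 1.44 for *Itgb1* and 0.90 for *Itgal*. Every old rTreg library lay above every young one in both sums. Leaving out 1 of them therefore cannot show that part.

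In aTreg cells, *Itgb7* was 1.77-fold higher in old mice (log2 0.83 ± 0.15, adjusted p = 0.0023) and *Itga6* was 2.65-fold lower (-1.41 ± 0.24, adjusted p = 0.0012), and in both the ages did not overlap, by a narrow margin in *Itgb7* (30428 in the highest young and 30467 in the lowest old library). Of all genes tested, 2.71% were called in this comparison. Without old aTreg replicate 2 both remained called, *Itgb7* at 0.71 (adjusted p = 0.013) and *Itga6* at -1.13 (adjusted p = 0.0039). *Itgae* differed little in aTreg cells, at a mean of 5161 ± 1520 in young and 5696 ± 2508 in old mice. The mean of *Itgb3* was 1001 ± 525 in old and 431 ± 149 in young mice, with a wide error of the difference (1.13 ± 0.55, adjusted p = 0.41).

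In kTreg cells, limma called 0 of the 10 chains between the ages, where 1.26% of all genes tested were called. At an unadjusted p below 0.05 there were 2 chains, *Itga4* (log2 0.64 ± 0.18, adjusted p = 0.088) and *Itga6* (-0.49 ± 0.24, adjusted p = 0.32). edgeR called 0 and DESeq2 called 1, *Itga4*, and limma called *Itga4* without old kTreg replicate 1 (0.85, adjusted p = 0.017). *Itgae* was at 12965 ± 1092 in young and 15271 ± 458 in old kTreg cells (SD, n = 4), without overlap. The difference was 0.24 ± 0.33 on the log2 scale (adjusted p = 0.73). *Itgb1* was at 11883 ± 2526 and 8350 ± 530, also without overlap (-0.49 ± 0.25, adjusted p = 0.35). These standard errors come from the spread within all 6 groups, so they do not measure the spread of kTreg cells alone. Neither chain was called in any of the 33 alternative fits, among them that of only the groups compared.

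**Figure D3:**
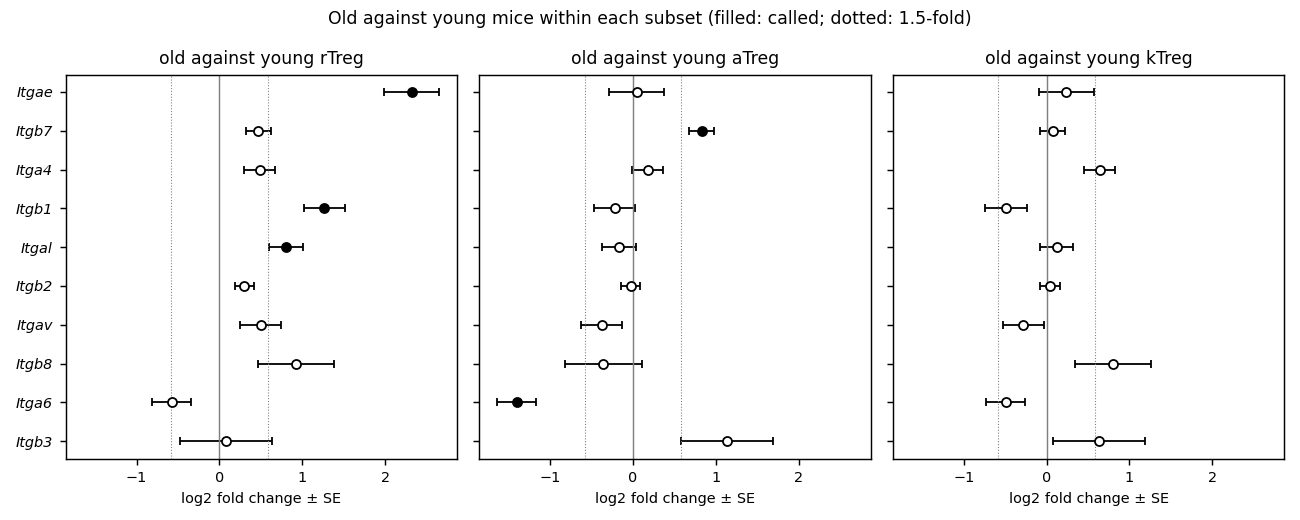
Log2 fold changes of old against young mice (x axes, standard errors, 4 mice an age) in each subset for the 10 chains (y axis). Filled points are called: *Itgae*, *Itgb1* and *Itgal* to the right in rTreg, *Itgb7* to the right and *Itga6* to the left in aTreg, and no chain in kTreg cells.

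The effect of age on each subset difference was tested as an interaction. In young mice *Itgae* was 11.2-fold higher in kTreg than in rTreg cells and in old mice 2.64-fold, a difference of -2.08 ± 0.47 on the log2 scale (adjusted p = 0.015). For aTreg against rTreg cells the difference was -2.28 ± 0.47 (adjusted p = 0.019). It was no longer called without young rTreg replicate 3 (adjusted p = 0.052). *Itgb1* was 2.64-fold higher in kTreg than in rTreg cells in young mice and 1.28-fold lower in old mice, a difference of -1.75 ± 0.35 (adjusted p = 0.0078). For aTreg against rTreg cells it was 1.60-fold higher in young mice and 1.76-fold lower in old mice, a difference of -1.49 ± 0.35 (adjusted p = 0.038). This last call was lost in 11 of 33 alternative fits, 10 of them without 1 library and 1 with only the groups compared (adjusted p = 0.065), with adjusted p up to 0.11. Both comparisons use the same rTreg libraries, in which the 2 chains differed between the ages. The mean of *Itgb1* was also lower in old than in young kTreg cells (8350 against 11883), a difference that was not called. In old mice, macrophage marker sums were 10036 to 26172 in rTreg, 221 to 322 in aTreg and 1890 to 2809 in kTreg cells. The part of other cells' RNA in these interactions was not tested.

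Of the 10 chains, 2 were called in the interaction of age with kTreg against rTreg, where 3.02% of all genes tested were called, and 2 in that with aTreg against rTreg, where 1.56% were. For kTreg against aTreg cells limma called 0 of 10, and 0.156% of all genes, and edgeR and DESeq2 also called 0. The 2 chains at an unadjusted p below 0.05 there were *Itgb7*, given above, and *Itga6* (0.91 ± 0.33, adjusted p = 0.39). In *Itga6* the kTreg libraries were below the aTreg libraries in 4 of 4 young mice (log2 -0.62), and in 2 of 4 old mice (log2 0.29). Without old aTreg replicate 2, the aTreg interaction of *Itgb1* was -1.18 (adjusted p = 0.062), one of those losses, and that of *Itgae* was -1.87 (adjusted p = 0.028).

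**Figure D4:**
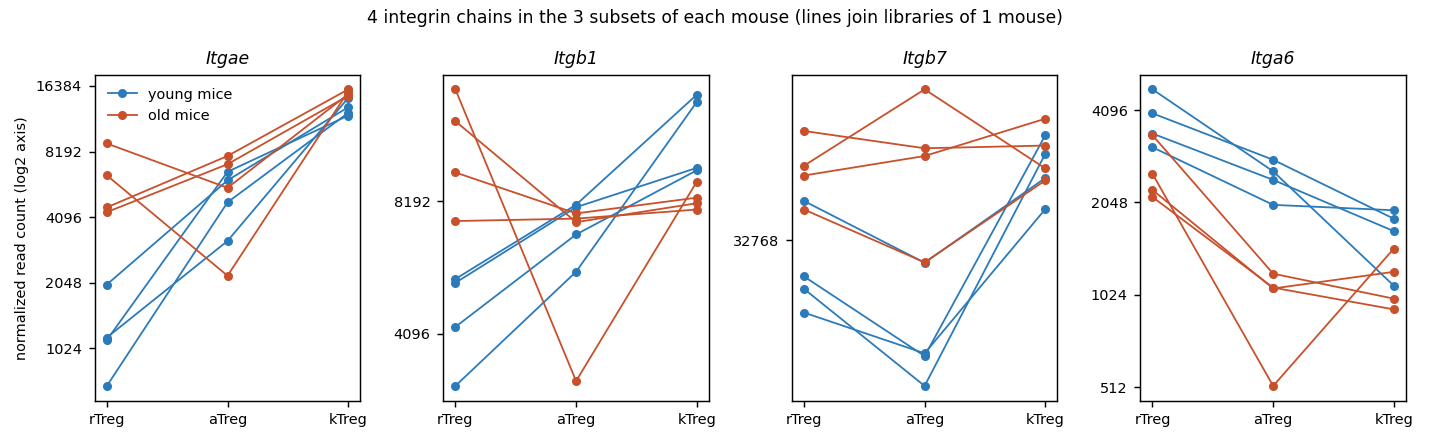
Normalized read counts (y axes, log2 scale) of *Itgae*, *Itgb1*, *Itgb7* and *Itga6* in the 3 subsets of each mouse (x axes), with a line for each of 4 young (blue) and 4 old (red) mice. In rTreg cells the old mice lie above the young mice in *Itgae* and *Itgb1*, and in aTreg cells they lie below them in *Itga6*.

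Other chains of the family were mostly scarce. Of 16 further integrin chains, 14 passed the filter. In kTreg against aTreg cells 1 was called higher (*Itgam*, 62.2 against 7.86), and in kTreg against rTreg cells 2 were called higher and 1 lower (*Itga2b*). Macrophage and monocyte marker sums were 1890 to 2809 in old kTreg and 221 to 322 in old aTreg cells. In young mice these sums were 0 to 19742 in kTreg and 52.0 to 2801 in aTreg cells. The part of other cells' RNA in *Itgam* was not tested. *Itga3*, an α partner of β1 for laminins, was 3.96-fold higher in kTreg than in rTreg cells (222 against 69.6, log2 1.99 ± 0.39, adjusted p = 7.1e-04), in 8 of 8 mice and without overlap. *Itga1*, a collagen-binding partner of β1, was the other chain called higher in kTreg cells, and it was called higher in aTreg cells as well. It was at 0 in all 4 young rTreg libraries, where 0 reads allow at most 3.95, and at group means of 35.9 to 182 elsewhere. In old mice its kTreg mean lay below its rTreg mean (85.1 against 109). Over both ages it was higher in kTreg than in rTreg cells of 5 of 8 mice. In aTreg against rTreg cells *Itgam* and *Itga2b* were called lower, with rTreg means that rest on the old libraries (211 and 687).

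Of 32 genes that couple integrins to the cytoskeleton and switch their affinity, 26 were tested. The median over these 26 was 0.12 on the log2 scale in kTreg against aTreg and 0.02 in kTreg against rTreg cells. *Cytip*, whose product restrains LFA-1 adhesion through cytohesin, was 1.90-fold lower in kTreg (8511 against 16206, log2 -0.92 ± 0.08, adjusted p = 3.1e-08, lower in 8 of 8 mice) and 1.62-fold lower in aTreg than in rTreg cells (adjusted p = 7.5e-06). *Rasgrp2*, an activator of Rap1 that turns integrins on, was 1.96-fold lower in kTreg (1273 against 2516, adjusted p = 5.4e-04) and 2.72-fold lower in aTreg cells (981, adjusted p = 2.4e-05). *Skap2*, an adaptor for inside-out signals, was 1.63-fold higher in kTreg than in aTreg cells (1025 against 606, adjusted p = 0.011), and *Dok1*, which binds β tails, 1.87-fold higher in kTreg than in rTreg cells (adjusted p = 2.0e-05). In all, 1 of the 26 was called in kTreg against aTreg, 5 in kTreg against rTreg (2 higher, 3 lower) and 2, both lower, in aTreg against rTreg cells, where 7.39%, 15.5% and 8.01% of all genes tested were called. The counts of the lists below are to be read against the same shares.

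Among 12 ligand genes (10 past the filter), *Icam1*, a ligand of LFA-1, was 1.79-fold higher in kTreg than in aTreg cells (6113 against 3511, adjusted p = 2.5e-04) and 2.61-fold higher than in rTreg cells (adjusted p = 1.2e-07), in 8 of 8 mice each time and without overlap. The other ligands called in kTreg against aTreg cells were *Fn1* for fibronectin, higher, and *Spp1* for osteopontin, lower (226 against 685). The means of *Fn1* were 65.8 in old kTreg and 1.20 in old aTreg cells, and 9.74 in young kTreg and 15.5 in young aTreg cells, so the higher kTreg mean was that of the old mice. The macrophage and monocyte marker sums were 1890 to 2809 in old kTreg and 221 to 322 in old aTreg cells, and their part in *Fn1* was not tested. *Cdh1*, which encodes the αE β7 ligand E-cadherin, was called higher with age in all 3 subsets, at means of 772 ± 301 in old and 8.48 ± 5.70 in young rTreg, 306 ± 73.6 and 6.40 ± 5.44 in aTreg, and 117 ± 44.5 and 7.61 ± 11.3 in kTreg cells (SD, n = 4). It was singled out after its values were seen. The part of other cells' RNA in *Cdh1* was not tested. In kTreg against rTreg cells 1 ligand gene was called higher and 0 lower, and in aTreg against rTreg cells 1 higher and 1 lower.

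Tetraspanins and other membrane proteins that sit beside integrins (10 genes, all past the filter) moved in both directions. *Cd81* was 3.16-fold higher in kTreg than in rTreg cells (10214 against 3186, adjusted p = 5.5e-08) and 1.89-fold higher than in aTreg cells (adjusted p = 3.6e-04), in 8 of 8 mice each time. *Cd82* was 2.02-fold higher in kTreg than in rTreg cells (adjusted p = 5.3e-09). *Cd9* was 4.11-fold lower in kTreg than in aTreg cells (617 against 2309, adjusted p = 1.3e-05) and 4.41-fold lower than in rTreg cells (adjusted p = 1.4e-06), in 8 of 8 mice each time. *Cd226*, a partner of LFA-1 at the synapse, was 2.01-fold lower in kTreg than in aTreg cells (1115 against 2176, adjusted p = 1.9e-05). In kTreg against aTreg cells 1 of the 10 was called higher and 2 lower, against rTreg cells 2 were called higher and 2 lower in kTreg, and 3 higher and 1 lower in aTreg cells.

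Of the latent TGF-β complex on which αv β8 acts (9 genes, 7 past the filter), *Lrrc32*, which encodes the anchor GARP, was 3.41-fold lower in kTreg than in rTreg cells (1730 against 5538, log2 -1.77 ± 0.26, adjusted p = 3.0e-05, lower in 8 of 8 mice) and 2.24-fold lower in aTreg than in rTreg cells (adjusted p = 0.0049). The aTreg mean differed between the ages, at 5900 ± 1354 in young and 1174 ± 549 in old mice (SD, n = 4, adjusted p = 4.0e-04). The rTreg means were 6071 ± 1292 in young and 5005 ± 872 in old mice, so the lower aTreg mean was that of the old mice. The interaction of age with aTreg against rTreg was called in limma (log2 -2.24 ± 0.52, adjusted p = 0.035). *Nrros*, another anchor of latent TGF-β, was 1.67-fold higher in kTreg than in aTreg cells (3395 against 2027, adjusted p = 1.2e-04). *Itgav* and *Itgb8* were thus higher in kTreg than in rTreg cells, where *Lrrc32* was lower. Of the 7 genes, 1 was called higher and 0 lower in kTreg against aTreg, 2 higher and 1 lower in kTreg against rTreg, and 1 higher and 1 lower in aTreg against rTreg cells.

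Between the ages, 5.83% of all genes tested were called in rTreg, 2.71% in aTreg and 1.26% in kTreg cells. In rTreg cells 2 further chains were called higher in old mice (*Itga1* and *Itga2b*, given above) and 0 lower, 3 of the 26 adaptor genes higher and 0 lower, 4 of the 10 ligand genes higher and 1 lower, 2 of the 10 membrane proteins higher and 0 lower, and 0 of the 7 latent TGF-β genes higher and 1 lower. The old rTreg libraries were high in myeloid markers, and the part of other cells' RNA in these rTreg counts was not tested. In aTreg cells 1 ligand gene and 2 membrane proteins were called higher and 1 latent TGF-β gene, *Lrrc32*, lower. In kTreg cells 1 ligand gene, *Cdh1*, and 1 membrane protein, *Cd226* (1422 ± 203 in old and 808 ± 209 in young mice, adjusted p = 0.021), were called higher.

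For 9 of the 10 chains the genes whose log2 values followed it most closely over the 24 libraries were listed, as a description, since the libraries share groups and mice. *Itgae* ran closest to *Ahr*, which encodes the aryl hydrocarbon receptor (Pearson r = 0.97 over 24 libraries), then to *Adam8* and *Tjp3* (both 0.97). *Ahr* was at 208 ± 111 in young and 714 ± 323 in old rTreg cells and at 1280 ± 275 and 1530 ± 77.7 in kTreg cells (SD, n = 4). *Itga6* ran closest to *Ugcg* and *Lrrc32* (both 0.94), *Itgal* to *Nfkb2* (0.91), *Itgb8* to *D830030K20Rik* and *Axl* (both 0.90), *Itgav* to *Ptpn13* (0.90) and *Itgb3* to *Tmod3* (0.91). The closest genes were less alike for *Itgb2* (*Chmp7*, 0.87), *Itgb7* (*Pdcd6ip*, 0.87) and *Itga4* (*Man2a2*, 0.84).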

How the data were processed

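SMART-Seq v4 libraries of 24 sorted Treg samples were analysed. The authors aligned paired reads of 150 bases to GRCm39 with HISAT2 2.2.1, sorted them with SAMtools 1.13, counted reads with HTSeq 1.99.2 and used DESeq2 1.44.0. The deposited values are a normalized signal, the reads of a gene divided by 1 size factor per library. Whole reads came back within 0.001 reads for 100% of the values. The annotation and strand setting are not given in the sources used here. No column was left unmapped.

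Symbols, exon lengths and positions came from GENCODE M39, which held 17353 of 17464 genes. limma 3.58.1 (R 4.3.3), with a mean-variance trend, was fitted to log2(value + 1) with a mean for each of the 6 groups. A gene was kept where 4 or more libraries reached a value of 10, which left 16630 genes. Fold changes are on that scale, which understates the change of low genes. Called means an adjusted p below 0.05 and a fold above 1.5. Alternatives were other pseudocounts and filters, TMM scaling, edgeR 4.0.16 and DESeq2 1.42.0 on recovered reads, the mouse as a block, only the groups compared, and leaving out each library. The series' design text gives 4 young and 4 old mice as the source of all subsets, and equal replicate numbers within an age were read as 1 mouse, which no label states. Deviations from group means had a median correlation of 0.15, 0.09 and 0.12 between libraries of 1 mouse and of -0.03, -0.03 and -0.05 between mice.

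Members and lists were chosen with earlier results of these data known. All 10 chains are named. Other lists were named by their called genes of lowest p, up to 2 a direction and subset comparison, beside the age values of those genes, and exceptions are stated. Precision is limited by the spread between mice and, for scarce genes, by counting error, since PCR copies are not independent molecules. Some genes that the rules name are not reported here.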

Additional observations from a re-analysis of the deposited data

Results flagged for a closer look

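*Itgb1* in old aTreg replicate 2 was at 3195, and the other 3 old aTreg libraries lay between 7348 and 7692, so that the gap took 0.924 of the range of the group. Of 60 groups of 4 looked at, 10 chains in 6 groups, chance alone flags about 1 in 20. The share flagged was smaller, and this was the 1 such library. The same library had the lowest Treg marker sum, 25515, and was also the lowest old library in *Itgae* (2207) and the lowest of all in *Itga6* (517), whereas it was the highest of all in *Itgb7* (53616) and *Itgb3* (1726). The part of its low Treg marker RNA in these values was not tested.

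The difference between kTreg and rTreg cells changed with age in *Itgae* (interaction -2.08 on the log2 scale) and *Itgb1* (-1.75), and so did the difference between aTreg and rTreg cells in *Itgae* (-2.28) and *Itgb1* (-1.49), each by the limma test of the difference itself. Across the alternatives the first of these had adjusted p-values from 5e-04 to 0.045, the second from 5e-05 to 0.022, the third from 5e-04 to 0.052 and the fourth from 0.0041 to 0.11. Each of these differences uses the old rTreg libraries, which were high in myeloid markers. The part of other cells' RNA in them was not tested.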

How the results depend on the processing

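Of 90 pairs of chain and comparison, 20 were called, and 15 of these calls held in all 33 other fits (9 settings and 24 leaving out 1 library). None of the 20 changed direction. *Itgb1* in kTreg against aTreg cells was lost in 9 fits, among them TMM scaling, edgeR and DESeq2 (log2 0.58, 0.55 and 0.56, under the fold threshold). *Itgb8* in aTreg against rTreg cells was lost in 12 fits without 1 library (adjusted p up to 0.097), *Itgal* in old against young rTreg cells in 4, *Itgb1* in the interaction of age with aTreg against rTreg in 11 (adjusted p up to 0.11), and *Itgae* there in 1, without young rTreg replicate 3 (adjusted p = 0.052). Of the 70 pairs not called, 6 were gained in at least 1 fit and 16 changed sign in at least 1. The causes were not tested.

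By adjusted p alone, 7 chains passed in kTreg against rTreg cells in place of 4. For old against young kTreg cells, DESeq2 called 1 in place of 0, and leaving out 1 library gave 0 to 1. For the interaction of age with kTreg against aTreg, leaving out 1 library gave 0 to 1 in place of 0. For that with aTreg against rTreg, the fit of only the groups compared called 1 in place of 2, and leaving out 1 library gave 0 to 2, with 0 without young rTreg replicate 3. The replicate block kept every count of called chains, for example 3 in kTreg against aTreg and 4 in kTreg against rTreg cells, and changed no call. Over all genes, DESeq2 called 701 in old against young aTreg (limma 451), 436 in old against young kTreg (209, edgeR 109), and 133, 849 and 635 in the 3 interactions (26, 503 and 259). Scarce chains, *Itgb8* and *Itgb3* in particular, had the widest errors. Differences well beyond 1 standard error were left uncalled by limma in these chains. Examples are *Itgb8* in old against young rTreg cells (0.93 ± 0.46, adjusted p = 0.24) and *Itgb3* in old against young aTreg cells (1.13 ± 0.55, adjusted p = 0.41).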
